A study of Homo sapiens with 3 samples.

Results

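The cytosolic and nuclear chaperone machinery was described here through 35 genes chosen by name: 4 HSP70 genes, 2 HSP110 genes, 2 HSP90 genes, 2 genes of the small heat shock protein series, 10 HSP40 (DNAJ) genes, 7 co-chaperones of HSP90, 6 co-chaperones of HSP70, and HSF1 and HSF2. All 35 were found among the 25702 genes of the deposited count tables, 1 of them (HSPB11) under its newer symbol IFT25, and all 35 passed the filter on low values (10 or more counts in 1 or more of the libraries), which left 12879 genes. The measurement was RNA sequencing of Molm13, an established human line of acute myeloid leukemia in which the receptor kinase FLT3 has an internal tandem duplication. The cells were kept in culture for 6 h with the solvent DMSO, with 50 nM pyrvinium or with 100 nM pyrvinium, an anthelmintic drug, and each condition is 1 library of 1 cell line. In 1 label the unit of the higher dose lacks its prefix, and the dose was taken as 100 nM.

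The libraries held 23165771 (DMSO), 22677038 (50 nM) and 24075123 (100 nM) counts. With 1 library per condition there was no replicate check, and the comparisons here have no p-value. The 95% intervals given below cover counting error only, and they compare the libraries and not the conditions. Both doses were set against the same DMSO library. The myeloid markers CD33, CEBPA, FLT3, LYZ, MPO, PTPRC and SPI1 all had counts in every library, from 291 to 11181. Of the markers of other cells, CD3E, CDH5, EPCAM and KRT19 were at 0 in the 3 libraries and COL1A1 had 1 to 9 counts, while HBB had 16 counts in the 50 nM library and 0 in the others.

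Chaperones of the HSP70 family bind and release unfolded stretches of protein in a cycle driven by ATP. J-domain proteins (HSP40) deliver clients and start ATP hydrolysis, nucleotide exchange factors such as HSP110 and the BAG proteins reset the cycle, and HSP90 with its co-chaperones takes over clients such as kinases and steroid receptors. Some of these genes are constitutive, whereas others are induced by proteotoxic stress through HSF1, whose trimers bind heat shock elements in promoters. The mutant FLT3 kinase of such leukemia cells is itself known as an HSP90 client.

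Heat shock elements were looked for in the RefSeq promoter windows of the members, which run from 250 bases before to 50 after each transcript start and are of GRCh38.p14. Windows were found for 30 of the 35 members, and for FKBP4, HSF1, HSPA14, ST13 and STUB1 there was none. The letters searched on both strands were GAANNTTC or TTCNNGAA (a 2-unit element) and the same with 1 more alternating unit after 2 more free bases, that is GAA, TTC and GAA or TTC, GAA and TTC (a 3-unit element, which always holds a 2-unit element). A 3-unit element was present in 6 members (20.0% of the 30, beside 0.608% of all 27305 genes with a window and 0.490% of the 35116 windows), and the stretch around it is shown for each because these members differ widely in their change. A 2-unit element is shown for HSPA1A, HSPA1B and DNAJB1, the classical inducible HSP70 and HSP40 genes. Capitals mark the element each line is shown for, other 2-unit elements (in HSP90AA1) are left in lower case, each line reads 5′ to 3′ on the strand of the gene, and the positions are those of an exact match of the window to GRCh37, the build of the counts.
HSPA8, chr11:122932879-122932907, minus strand: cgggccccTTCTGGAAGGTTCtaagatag
DNAJA1, chr9:33025266-33025294, plus strand: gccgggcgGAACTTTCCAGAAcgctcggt
HSP90AA1, chr14:102553433-102553493, minus strand: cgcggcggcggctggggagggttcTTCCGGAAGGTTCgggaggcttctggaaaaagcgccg
CHORDC1, chr11:89956247-89956285, minus strand: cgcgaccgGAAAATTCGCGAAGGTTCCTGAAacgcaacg
DNAJB6, chr7:157129543-157129603, plus strand: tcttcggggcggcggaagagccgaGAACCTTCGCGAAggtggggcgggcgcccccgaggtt
HSP90AB1, chr6:44215560-44215588, plus strand: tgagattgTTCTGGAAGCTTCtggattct
HSPA1A, chr6:31783190-31783245, plus strand: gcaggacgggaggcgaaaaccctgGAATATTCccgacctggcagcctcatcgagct
HSPA1B, chr6:31795386-31795441, plus strand: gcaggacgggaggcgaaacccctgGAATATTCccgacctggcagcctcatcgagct
DNAJB1, chr19:14629225-14629280, minus strand: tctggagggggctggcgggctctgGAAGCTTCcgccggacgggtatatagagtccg

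The 3-unit element of DNAJA1 lies just after the transcript start of its window, at positions 4 to 16. Those of the other 5 members lie before the start of the window used. HSP90AA1 has 2 windows and HSP90AB1 has 3, and other transcript starts place some elements within the gene. All 29 bases of the HSPA8 stretch and 24 of the 29 of the DNAJA1 stretch lie in an annotated exon. The stretches of DNAJA1, HSP90AA1, HSP90AB1 and CHORDC1 lie inside the gene span of the count tables. CHORDC1 holds 3 overlapping copies, and HSPA8 and HSP90AB1 each hold another copy in the same window that is not shown. By the coordinates in the count tables, HSPA1A and HSPA1B have 1 exon block each and the other 33 members have from 3 to 19. Exons of 7 members (PTGES3, STUB1, DNAJB6, DNAJC7, DNAJC2, HSP90AB1 and HSF1) overlap a gene on the opposite strand, and CDC37 overlaps MIR1181 on its own strand. Whether counting used the strand was not stated, so reads there may be shared.

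At 100 nM against DMSO, 30 of the 35 members were lower and 5 were higher, while 50.7% of all genes tested were lower. The members' median log2 fold change was -0.33, beside -0.00416 over all 12879 genes, and the quartiles were -0.58 and -0.14. The interval lay below 0 for 30 members, where 25.5% of all genes had such an interval, and above 0 for 3 members (HSPBP1, HSF1 and DNAJB14), where 23.8% of all genes did. Past 1.5-fold lower were 8 members (HSPH1, DNAJA1, HSPA8, FKBP4, AHSA1, DNAJB1, BAG3 and HSPA1A) against a background of 4.29%, and past 1.5-fold higher was 0 members against 7.62%. No member passed 2-fold (3.84% of all genes in either direction), and past the lower threshold of 0.32 on the log2 scale were 18 members, all of them lower (29.8% in either direction). Fewer RNA molecules per cell and fewer cells of a kind cannot be told apart in bulk RNA.

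Low counts give large ratios easily, so the comparison was also read among 4986 abundant genes (mean over the libraries of 1000 counts or more), which hold 26 members. Of these 26, 6 were past 1.5-fold lower, beside 0.702% of the abundant genes. From the lowest change upward, HSPH1 stood at place 5 of 4986, DNAJA1 at 6, HSPA8 at 10, FKBP4 at 16, AHSA1 at 21 and DNAJB1 at 26. The genes at places 1 to 3 (ND5, CYTB and COX3) are mitochondrially encoded, and the gene at place 4 is HSPA5, the HSP70 of the endoplasmic reticulum. The lowest 100 abundant genes, 2.01% of the 4986, held 11 of the 26 members.

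**Figure D1:**
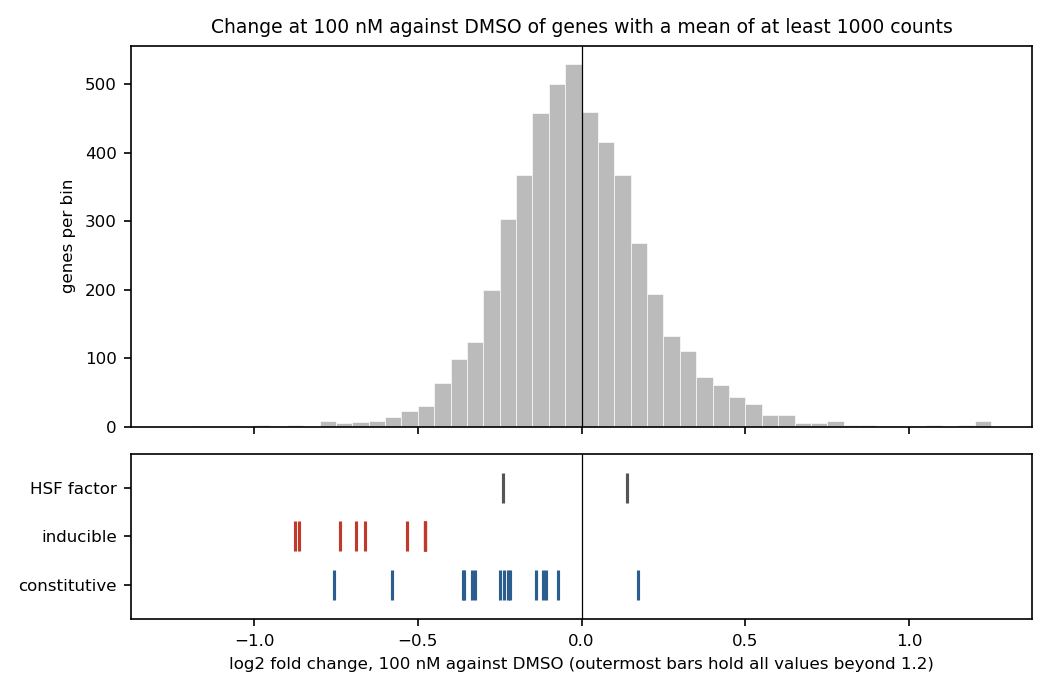
Distribution of the log2 fold change at 100 nM against DMSO over the 4986 abundant genes (grey bars, number of genes), with the 26 members among them as coloured ticks below (red inducible, blue constitutive, grey HSF). The members' median of -0.35 lies to the left of the median of these genes, -0.02, and 24 of the 26 members are below 0, where 55.1% of the abundant genes are.

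HSPA8 (Entrez 3312, chr11:122928200-122932844), the constitutive HSC70 that carries most of the cytosolic HSP70 work, had 110626 counts with DMSO, 83667 at 50 nM and 68262 at 100 nM. Its count dropped at each dose. Against DMSO the log2 fold change was -0.37 at the lower dose and -0.76 (interval -0.77 to -0.74) at the higher one, which is 1.69-fold lower. Per exon length, in CPM (counts scaled to a library of 1000000 counts) per kilobase of exon, its DMSO level was 2115, which was 97.1% of the summed level of the 4 HSP70 genes. HSPA8 was thus both the most abundant member per length and 1 of the 3 with the largest falls.

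HSPA1A and HSPA1B, the neighbouring stress-inducible HSP70 genes, code for almost the same protein, so reads can be split between them. HSPA1A had 125, 98 and 85 counts with DMSO, 50 nM and 100 nM, and HSPA1B had 266, 231 and 186. Summed, the pair had 391, 329 and 271 counts, and the sum changed by -0.22 (log2, interval -0.44 to -0.00) at the lower dose and by -0.59 (interval -0.82 to -0.36) at the higher one. Both were far below HSPA8 per length, at DMSO levels of 2.22 and 4.56 on the same scale, and both were lower at 100 nM. How reads that match both genes were counted is not known. If such reads were left out, these levels are too low and the HSPA8 share of the HSP70 level is too high. HSPA14, an HSP70 that works at the ribosome, had log2 fold changes of -0.30 and -0.34 at 50 and 100 nM.

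HSPH1 (Entrez 10808, chr13:31710762-31736117), the stress-inducible HSP110 and an exchange factor for HSP70, had 20544, 14246 and 11658 counts in the DMSO, 50 nM and 100 nM libraries. This was the lowest change of any member at 100 nM, with a log2 fold change of -0.88 (interval -0.91 to -0.84) after -0.50 at 50 nM. HSPA4, its constitutive relative, had 9672, 8157 and 7860 counts and log2 fold changes of -0.22 and -0.36. HSPH1 thus went from 2.12 to 1.48 times the counts of HSPA4 between DMSO and 100 nM.

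HSP90AA1, the inducible cytosolic HSP90, had 99396, 77657 and 74281 counts with DMSO, 50 nM and 100 nM. HSP90AB1, the constitutive one, had 85141, 82732 and 84318. At the higher dose the log2 fold change of HSP90AA1 was -0.48 (interval -0.49 to -0.47), and that of HSP90AB1 was -0.07 (interval -0.09 to -0.06). The intervals of these 2 genes, counted at similar depth, lay far apart. The ratio of HSP90AA1 to HSP90AB1 counts was 1.17 with DMSO, 0.939 at 50 nM and 0.881 at 100 nM, and per length the share of HSP90AA1 in the HSP90 level went from 42.1% to 36.9% and 35.4%.

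Among the small heat shock proteins, HSPB1 (HSP27), which holds unfolded proteins without ATP, had 4579, 3352 and 3296 counts and log2 fold changes of -0.42 at 50 nM and -0.53 at 100 nM. Most of its change was present at 50 nM. HSPB11 carries the family name but is also known as a protein of intraflagellar transport, and it had 452, 289 and 394 counts. HSPB11 was the member with the lowest value at 50 nM (-0.62) and was higher again at 100 nM than at 50 nM, by 0.36 (interval 0.14 to 0.58).

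**Figure D2:**
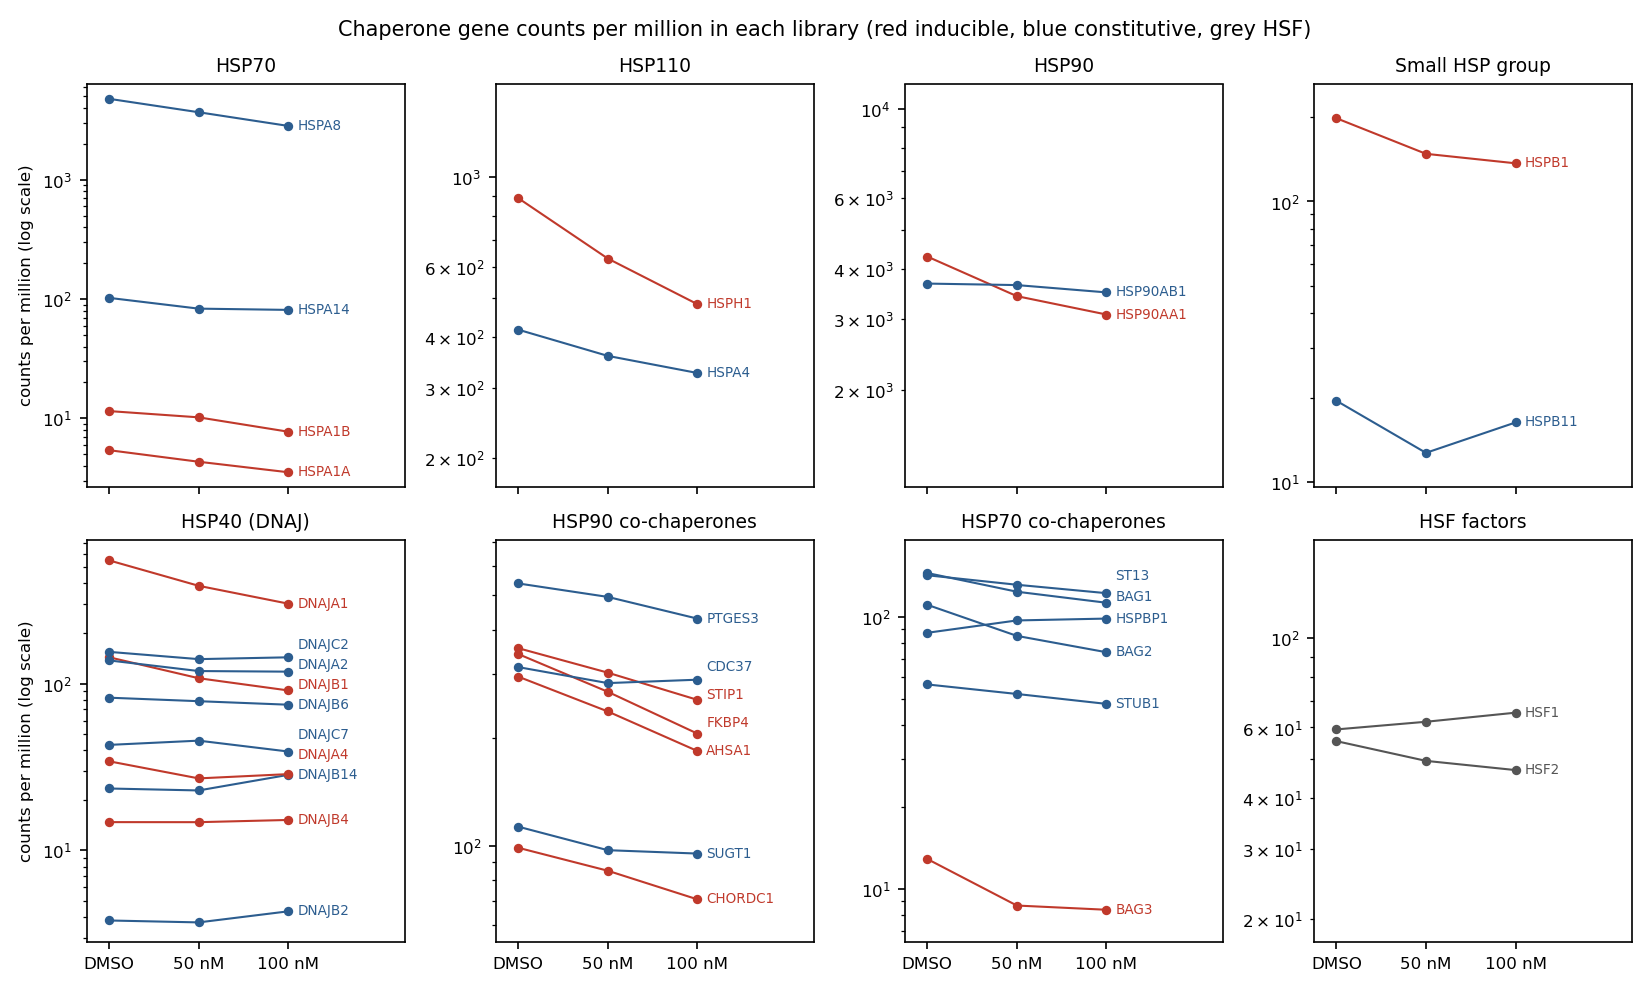
CPM (counts scaled to a library of 1000000 counts, on a log scale with a separate range in each panel) of the 35 members in the DMSO, 50 nM and 100 nM libraries, 1 point per library, in panels by role (red inducible, blue constitutive, grey HSF). HSPA8, HSPH1 and DNAJA1 step down at each dose, whereas HSP90AB1 stays nearly level and HSP90AA1 crosses below it.

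DNAJA1 (Entrez 3301, chr9:33025209-33039062), a class A J protein that partners HSPA8, had 12676 counts with DMSO, 8746 at 50 nM and 7264 at 100 nM. It changed by -0.51 and then by -0.86 on the log2 scale (interval -0.90 to -0.82). DNAJA1 made up 58.6% of the HSP40 level per length with DMSO and 48.0% at 100 nM. DNAJA2, its constitutive class A relative, had 3187, 2697 and 2842 counts and log2 fold changes of -0.21 and -0.22.

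DNAJB1, the classical inducible HSP40, had 3329, 2443 and 2193 counts, with log2 fold changes of -0.42 and -0.66 (interval -0.74 to -0.58). DNAJB6, a constitutive J protein that keeps aggregation-prone proteins soluble, had 1905, 1779 and 1801 counts, and its value at 100 nM was -0.14 (interval -0.23 to -0.05). DNAJA1 and DNAJB1, the inducible HSP40 genes with the most counts, thus both lay below the constitutive relative. DNAJA4, counted as inducible, had -0.34 and -0.26.

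The other J proteins changed little or were higher. DNAJC2, which works with HSPA14 at the ribosome, had -0.11 at 100 nM (interval -0.18 to -0.04), and DNAJC7, which binds HSP70 and HSP90, had -0.13 (interval -0.26 to -0.00). DNAJB4 had 342, 335 and 367 counts and 0.04 (interval -0.17 to 0.26). DNAJB2, the member with the lowest level per length, had 88, 84 and 104 counts and 0.18 (interval -0.24 to 0.61), so neither DNAJB4 nor DNAJB2 differed from DMSO beyond counting error. DNAJB14, a J protein of the endoplasmic reticulum membrane whose J domain faces the cytosol, had 544, 519 and 684 counts, which was the highest change of any member at 0.27 (interval 0.11 to 0.44). Over the 10 HSP40 genes the median was -0.14, the highest of the chaperone families, while the log2 fold change of their summed counts, to which DNAJA1 gave more than any other, was -0.49.

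All 7 HSP90 co-chaperones had intervals below 0 at 100 nM, with a median of -0.48. Such an interval was held by 25.5% of all genes and by 1916 of the 4986 abundant genes, to which all 7 belong. FKBP4 (FKBP52), an immunophilin of steroid receptor complexes, had 7911, 6086 and 4946 counts and log2 fold changes of -0.35 and -0.74 (interval -0.79 to -0.69). AHSA1 (AHA1), which speeds up the ATPase of HSP90, had 6843, 5365 and 4424 counts and -0.32 and -0.69 (interval -0.74 to -0.63). These were the lowest co-chaperone values and were nearly as low as that of HSPA8.

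STIP1 (HOP), the adaptor that holds HSP70 and HSP90 together, had 8214, 6880 and 6142 counts and -0.23 and -0.48. CDC37, which brings kinases to HSP90, had 7274, 6434 and 6988 counts and -0.15 and -0.12 (interval -0.16 to -0.07 at 100 nM). CDC37 was the co-chaperone of HSP90 that changed least at 100 nM. Of the other 3, CHORDC1 had -0.48, PTGES3 (p23), which stabilizes the closed form of HSP90, had -0.33, and SUGT1, an adaptor between HSP90 and client complexes, had -0.25 at 100 nM.

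The HSP70 co-chaperones ran from -0.62 to 0.17. BAG3, the inducible exchange factor that sends clients to autophagy, had 298, 197 and 202 counts, and its log2 fold change was -0.57 at 50 nM and -0.62 (interval -0.88 to -0.36) at 100 nM. BAG1, a constitutive exchange factor, had 3350, 2803 and 2713 counts and -0.23 and -0.36. Both were lower at 50 nM, and BAG3 had nearly the same value at both doses.

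ST13 (HIP), which steadies HSP70 in its ADP state, had 3287, 2973 and 2942 counts and -0.12 and -0.22. HSPBP1, an exchange factor of HSP70, had 2020, 2198 and 2373 counts and was the co-chaperone that was higher, at 0.15 and 0.17 (interval 0.09 to 0.26). BAG2, an inhibitor of the ubiquitin ligase STUB1 (CHIP), had -0.58, just short of 1.5-fold, and STUB1 itself had -0.24 at 100 nM.

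HSF1, the master factor of the heat shock response, had 1373, 1406 and 1574 counts and log2 fold changes of 0.06 (interval -0.05 to 0.17) and 0.14 (interval 0.03 to 0.24). HSF2, a related factor, had 1284, 1124 and 1133 counts and -0.16 and -0.24 (interval -0.36 to -0.12). The mRNA of HSF1 was thus slightly higher and that of HSF2 lower at 100 nM, and the count ratio of HSF1 to HSF2 went from 1.07 with DMSO to 1.39 at 100 nM. HSF1 activity is set largely on the protein and was not measured here.

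**Figure D3:**
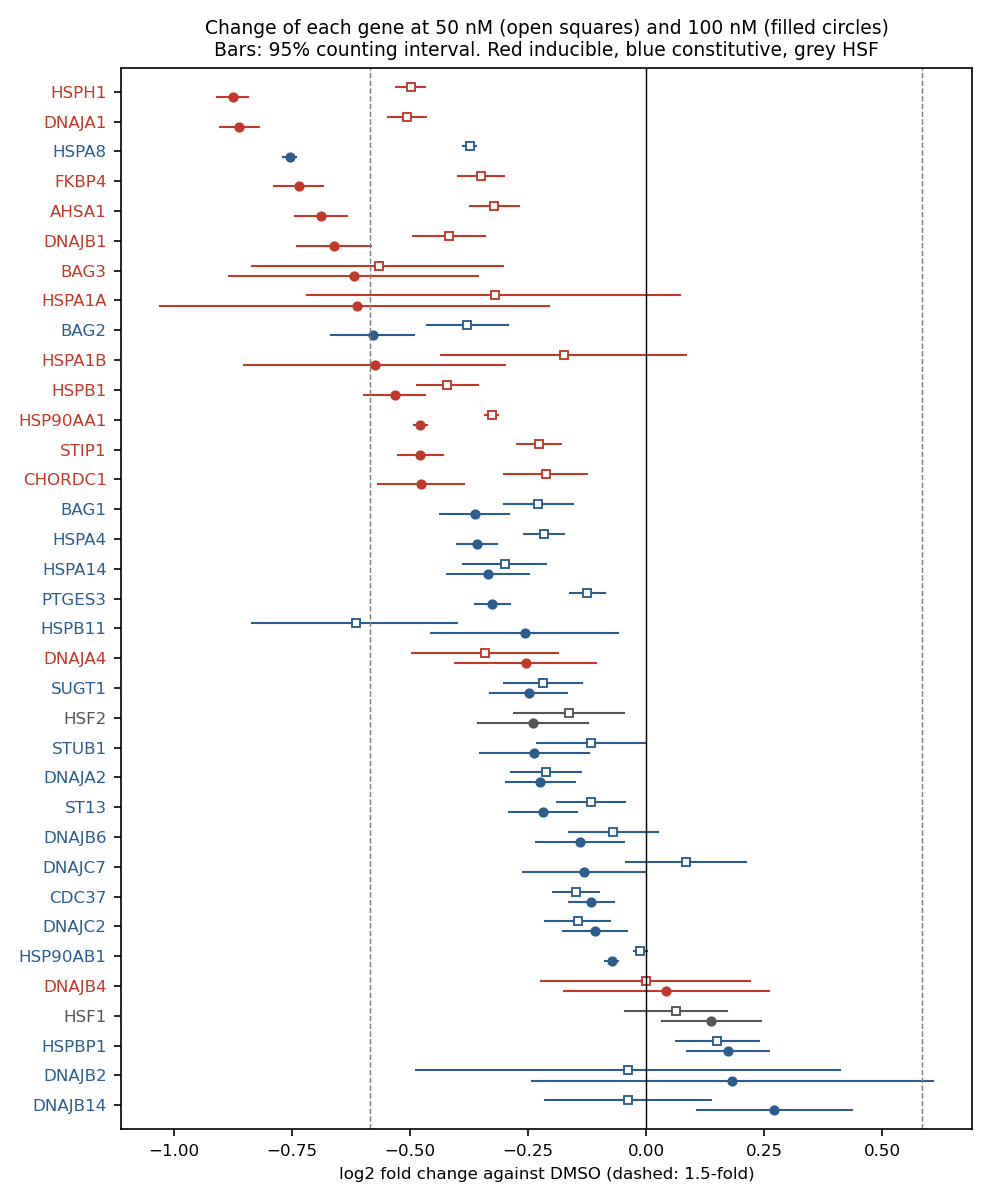
Log2 fold change of each of the 35 members at 50 nM (open squares) and 100 nM (circles) against the shared DMSO library, in order of the 100 nM value, with bars for the 95% counting interval at each dose. HSPH1 is lowest at -0.88 and DNAJB14 highest at 0.27.

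At 50 nM, 32 of the 35 members were lower than with DMSO, where 50.9% of all genes were, and the median was -0.22. The interval was below 0 for 25 members (19.2% of all genes) and above 0 for 1, HSPBP1 (17.9%). Only HSPB11 was past 1.5-fold lower (3.12% of all genes) and 0 members were past 1.5-fold higher (4.76%). Past 0.32 on the log2 scale were 12 members (19.9% of all genes in either direction).

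From 50 nM to 100 nM, 26 members were lower, where 48.8% of all genes were, and the median was -0.11. The interval was below 0 for 19 members (13.8% of all genes), and HSPB11 (0.36) and DNAJB14 (0.31, interval 0.14 to 0.48) were higher at 100 nM than at 50 nM beyond counting error, as were 1672 of the 12879 genes. The lowest steps between the doses were -0.40 for HSPA1B, -0.39 for FKBP4, -0.38 for HSPA8, -0.38 for HSPH1, -0.37 for AHSA1 and -0.36 for DNAJA1. HSPB1 (-0.11), BAG3 (-0.05, interval -0.34 to 0.24) and HSPA14 (-0.04, interval -0.13 to 0.06) moved less between the doses than between DMSO and 50 nM. No member passed 1.5-fold between the doses (5.71% of all genes in either direction), and 7 passed 0.32 on the log2 scale (14.2%).

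The members counted as inducible were then set beside those counted as constitutive, with HSF1 and HSF2 in neither class. These classes were chosen with earlier results of these data known, so their difference is a description and not a test. At 100 nM the 14 inducible members had a median log2 fold change of -0.59, and 13 of them were lower. The 19 constitutive members had a median of -0.22, and 16 were lower, where 50.7% of all genes were. Past 1.5-fold lower were 7 of the 14 inducible members and 1 of the 19 constitutive members, HSPA8, beside 4.29% of all genes. The difference of the medians was -0.37. The classes overlapped, since DNAJB4 (0.04) is counted as inducible and HSPA8 (-0.76) and BAG2 (-0.58) as constitutive.

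The same comparison within chosen pairs of genes needs no library scaling. AHSA1 with CDC37 and STIP1 with ST13 pair co-chaperones of unlike function, and the other pairs hold genes of the same family. In 6 of 8 pairs the ratio of the inducible to the constitutive gene was lower at 100 nM with an interval below 0. The log2 change of the ratio was -0.64 for DNAJA1 over DNAJA2, -0.57 for AHSA1 over CDC37, -0.52 for DNAJB1 over DNAJB6, -0.52 for HSPH1 over HSPA4, -0.41 for HSP90AA1 over HSP90AB1 and -0.26 for STIP1 over ST13. For BAG3 over BAG1 it was -0.26 (interval -0.52 to 0.01). The exception was HSP70 itself, where HSPA1A plus HSPA1B over HSPA8 changed by 0.17 (interval -0.06 to 0.39).

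**Figure D4:**
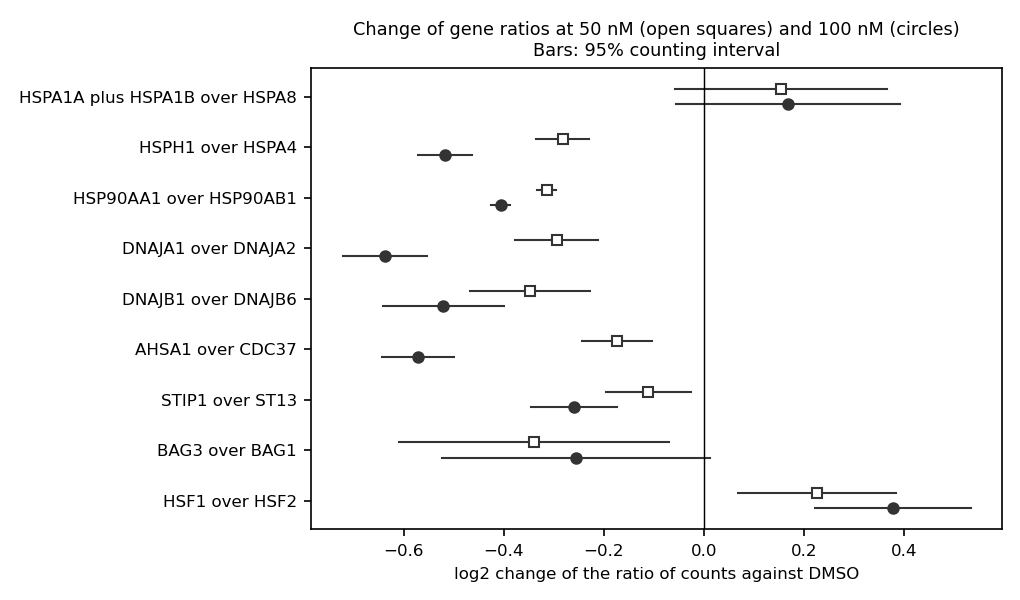
Log2 change of the count ratio within pairs of genes against DMSO at 50 nM (open squares) and 100 nM (circles), with 95% counting intervals. DNAJA1 over DNAJA2 is lowest at 100 nM (-0.64), HSPA1A plus HSPA1B over HSPA8 has an interval that spans 0, and HSF1 over HSF2 is above 0 (0.38).

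Chaperones and co-chaperones were close. The 20 chaperones had a median of -0.30 at 100 nM and 17 were lower. The 13 co-chaperones had a median of -0.36 and 12 were lower, where 50.7% of all genes were. The inducible members were low on both sides, with medians of -0.57 for 9 inducible chaperones and -0.62 for 5 inducible co-chaperones, against -0.14 for 11 constitutive chaperones and -0.24 for 8 constitutive co-chaperones. The order of chaperones and co-chaperones turned with the place given to the HSP40 genes, since with them counted as co-chaperones the medians were -0.51 for 10 chaperones and -0.25 for 23 co-chaperones.

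**Figure D5:**
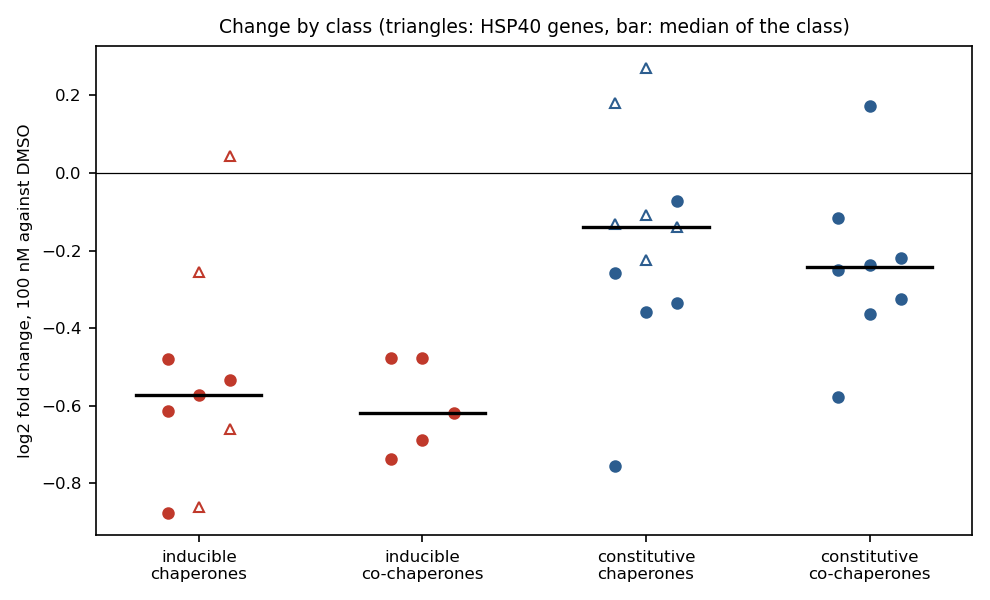
Log2 fold change at 100 nM against DMSO of each member (points) in 4 classes, with the class median as a bar. The inducible chaperones (median -0.57) and inducible co-chaperones (-0.62) lie lower than the constitutive chaperones (-0.14) and constitutive co-chaperones (-0.24), and the classes overlap.

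As a whole, the 35 members took 1.83% of all counts with DMSO, 1.53% at 50 nM and 1.34% at 100 nM, and the Wilson intervals of these shares (1.82% to 1.83%, 1.53% to 1.54% and 1.34% to 1.35%) lay apart. HSPA8, HSP90AA1 and HSP90AB1 held 69.7%, 70.2% and 70.2% of the members' counts. Within this sum HSPA8 went from 26.1% to 24.1% and 21.1%, and HSP90AB1 from 20.1% to 23.8% and 26.1%. HSPA8 had the largest share with DMSO, and HSP90AB1 had it at 100 nM.

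The families were also compared per exon length within each library. The level of HSP90 over that of HSP70 was 1.15 with DMSO, 1.35 at 50 nM and 1.64 at 100 nM. HSP70 co-chaperones over HSP70 went from 0.102 to 0.119 and 0.144, HSP40 over HSP70 from 0.279 to 0.280 and 0.314, and HSP90 co-chaperones over HSP90 from 0.409 to 0.389 and 0.362. At 100 nM the HSP70 level was thus lower relative to HSP90, to the J proteins and to its own co-chaperones than with DMSO, and the HSP90 co-chaperones were lower relative to HSP90. With DMSO, 14 members were at or above the percentile 90 of level per length of all genes tested.

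Beside the 6 members with a 3-unit element, 0.434% of the 9675 other genes tested that have a window held it. A 2-unit element was held by 15 of 30 members (50.0%), by 13.8% of the other genes and by 16.2% of all genes with a window, and the TATA letters TATAAA, also searched on both strands, by 7 of 30 members (23.3%), by 8.30% of the other genes and by 3819 of all 27305 genes with a window. DNAJA4, DNAJB2 and STIP1 hold these letters on the strand opposite to the gene, and DNAJC2, HSF2, HSPA1A and HSPA1B on the strand of the gene. Only in HSPA1A and HSPA1B do they lie close to the transcript start, from positions -30 and -29. In DNAJA4, DNAJB2, STIP1, DNAJC2 and HSF2 they lie between -240 and -167. Of the 6 members printed above with the 3-unit element, HSPA8, DNAJA1, HSP90AA1 and CHORDC1 had log2 fold changes of -0.76, -0.86, -0.48 and -0.48 at 100 nM, while DNAJB6 had -0.14 and HSP90AB1 had -0.07. The same letters thus stood in promoters of members whose counts were lower at 100 nM and of members whose counts were nearly level. The median was -0.48 for the 6 members with the element and -0.29 for the 24 without. Over the 42 other genes with the element it was -0.07, and over the other genes without it -0.01. For the 2-unit element the median was -0.48 for the 15 members that hold it and -0.24 for the members whose windows lack it. Over the other genes tested it was 0.01 with the 2-unit element and -0.01 without. HSPH1, AHSA1 and BAG3 have windows that hold neither the 3-unit nor the 2-unit element. Their log2 fold changes at 100 nM were -0.88, -0.69 and -0.62. A match of letters is a description and not a binding site.

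Other genes of the system, from 2 lists that share 4 genes, were read in the same way. Of 35 further genes of the cytosolic HSP70, HSP40 and HSP90 system, 31 could be tested, 20 were lower at 100 nM (50.7% of all genes were) and the median was -0.12. The one past 1.5-fold lower (4.29% of all genes) was HSPA6, an inducible HSP70, with 12, 15 and 7 counts and an interval of -2.42 to 0.63. Of 18 further genes known as HSF1 targets, 15 could be tested, 14 were lower (again beside 50.7% of all genes) and the median was -0.38. Past 1.5-fold lower there were HSPA6 and JMJD6, a hydroxylase, with 602, 410 and 416 counts and -0.59, whereas ZFAND2A, an arsenite-inducible zinc finger gene, was higher at 0.29.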

How the data were processed

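Poly(A) RNA of Molm13 cells was sequenced as stranded, paired libraries, 1 per condition. Rsubread was used by the authors for alignment to hg19, and the deposited values are raw counts per Entrez gene, in whole numbers. Whether counting used the strand, and how reads over several genes were treated, is not given in the sources used here. A deposited table of the authors' EBSeq comparisons (fold changes and posterior probabilities) was not used.

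Counts were scaled with edgeR 4.0.16 (TMM, R 4.3.3) over all 25702 genes. Genes that reached 10 counts in 1 or more libraries were then tested. Log2 fold changes had 0.5 counts added and were called past 1.5-fold. Their 95% Clopper-Pearson intervals, the Wilson intervals of shares and the Woolf intervals of ratios (scipy 1.17.1) hold counting error only. The scripts were tested on simulated data. Levels between genes used the exon length in the deposited tables.

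The members, classes and further lists were chosen with earlier results of these data known. All 35 members were accounted for, and values in every library were given for the pairs, for the 5 largest falls and 5 largest rises among members with at least 50 counts, and for HSF1 and HSF2. Other values and genes were singled out after they were seen. A marker of other cells is not reported here. The alternatives were scaling by total counts or by size factors of DESeq2 1.42.0, scaling without mitochondrial genes, other pseudocounts and filters, other folds, an assumed biological variation, and other classes.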

Additional observations from a re-analysis of the deposited data

How the results depend on the processing

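No paired analysis was possible because each condition has 1 library, and for the same reason no replicate could be left out. Under DESeq2 size factors, total counts, scaling without mitochondrially encoded genes and 5 counts added, the 140 values of single members at 100 nM against DMSO (35 members, 4 settings) stayed within their counting intervals. Single members were not recomputed for the other comparisons. Under the same settings the counts past 1.5-fold were 8, 1 and 0 (100 nM against DMSO, 50 nM against DMSO, 100 nM against 50 nM), as in the report. The fold decided the counts: at 2-fold they were 0, 0 and 0, and past 0.32 on the log2 scale they were 18, 12 and 7. An edgeR exact test was run at an assumed biological coefficient of variation, with an adjusted p (Benjamini-Hochberg) not above 0.05 as the call. At 0.1, 5 members were called at 100 nM against DMSO (AHSA1, DNAJA1, FKBP4, HSPA8 and HSPH1), beside 1.93% of all genes. At 50 nM it was 0 members, beside 0.248% of all genes. At 0.2 it was 0 members at 100 nM, beside 0.0932% of all genes, and 0 at 50 nM, where 0 of all genes were called. The variation was assumed and not measured. Chaperones minus co-chaperones in median log2 fold change, 0.07 in the report, was -0.26 with the HSP40 genes among the co-chaperones. The log2 ratio of the members' summed share at 100 nM to DMSO was -0.445, and it was -0.453 without mitochondrially encoded genes in the total, -0.351 without HSPA8 and -0.426 per length. The 6 of 8 gene pairs with a lower ratio were also 6 with 5 counts added. Leaving out the HSPA1A and HSPA1B pair, which was not among them, could not change this count. Depth limits HSPA1A, HSPA1B, BAG3, DNAJB2 and DNAJB4, whose intervals are the widest.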
